A study of Mus musculus with 6 samples.

Results

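The elastic fibre genes described here are 10 genes, taken by name from the gene counts of mouse Achilles tendon: Eln, Fbn1, Fbn2, Mfap2, Mfap5, Mfap4, Fbln1, Fbln5, Efemp2 and Emilin1. They are 10 of the 53726 features of the RNA-seq table. Total RNA came from Achilles tendons at 4 weeks of age, with 1 RNA-seq and 1 small RNA-seq library for each of 3 genotypes. The Control carried floxed Dicer alleles and no Cre (Dicer fl/fl). The ScxHt carried 1 ScxCre knock-in allele and intact Dicer alleles. The Dicer cKO carried both the ScxCre knock-in allele and Dicer fl/fl, so the enzyme that cuts microRNA precursors was targeted in the cells that use the Scx promoter, mainly tendon and ligament fibroblasts. ScxHt and Dicer cKO thus share the Cre allele, which sits in the Scx gene, and Control and Dicer cKO share the floxed alleles. Because each genotype had 1 library, no difference below has a replicate check and none carries a p-value.

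Elastic fibres let a tissue recoil after stretch. Their core is elastin, secreted as soluble tropoelastin and then crosslinked by lysyl oxidases, and it is laid down on a scaffold of microfibrils whose backbone is fibrillin. Microfibril-associated proteins bind the fibrillins, fibulins and EMILIN-1 bring tropoelastin, crosslinking enzymes and microfibrils together, and latent TGF-beta binding proteins tie the growth factor to the same scaffold. In tendon the fibres run between the collagen fascicles and around the cells, and they are also abundant in vessel walls.

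Elastin and fibrillin mRNAs are known targets of the miR-29 family, so the matching letters are shown first. The mature miRNAs below, from RefSeq (GRCm38.p6), share 1 seed. Capitals mark the seed, bases 2 to 8 counted from the 5′ end.
miR-29a-3p: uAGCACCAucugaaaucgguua
miR-29b-3p: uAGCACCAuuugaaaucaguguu
miR-29c-3p: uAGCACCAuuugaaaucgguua
The 7 bases that pair with this seed, TGGTGCT, were searched on the transcript strand of the longest annotated 3′ untranslated region of each gene (GENCODE vM21, GRCm38). They were found in 5 of the 10 genes: Eln held 3 matches, Fbn1 and Mfap5 held 2 each, and Fbn2 and Mfap2 held 1 each. Mfap4, Fbln1, Fbln5, Efemp2 and Emilin1 held none. Of the 10956 genes with such a region among those with enough reads, 16.9% held at least 1 match and 2.77% held 2 or more. Eln, Fbn1 and Mfap5 also held the longer match of 8 bases, TGGTGCTA, which was present in 3.63% of these genes. Windows of 22 bases that end 1 base past the 7 matching bases are shown for Eln, Fbn1, Mfap2 and Mfap5. Capitals mark the 7 matching bases and, where present, the final A.
Eln, site 1, chr5:134703736-134703757, minus strand: gacctcatcaacgtTGGTGCTA
Eln, site 2, chr5:134703489-134703510, minus strand: tctccaagggaaatTGGTGCTA
Eln, site 3, chr5:134703476-134703497, minus strand: ttggtgctacatgtTGGTGCTt
Fbn1, site 1, chr2:125301173-125301194, minus strand: ttctgttgtctgttTGGTGCTA
Fbn1, site 2, chr2:125300923-125300944, minus strand: gtgagggtttgtaaTGGTGCTt
Mfap2, chr4:141015632-141015653, plus strand: ggccctgcctgaccTGGTGCTt
Mfap5, site 1, chr6:122528561-122528582, plus strand: actctaattttcacTGGTGCTg
Mfap5, site 2, chr6:122528784-122528805, plus strand: atattttttttaaaTGGTGCTA
The windows of Eln sites 2 and 3 overlap. A letter match is a description and not a measured binding site.

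The coding sequence of Eln held 11 further matches in 2580 bases, that of Fbn1 held 2 in 8619 bases, and those of the other 8 genes held none. Among all genes with a coding sequence and enough reads, 21.8% held at least 1. All 11 Eln matches lay in the same reading frame, where the last 6 letters are the codons GGT and GCT for glycine and alanine. The windows shown were chosen because 4 of them are identical and follow each other every 27 bases. The last line, from elsewhere in the coding sequence, is given for contrast.
Eln, coding, chr5:134711164-134711185, minus strand: tttggggcTGGTGCTggtgtcc
Eln, coding, chr5:134711137-134711158, minus strand: tttggggcTGGTGCTggtgtcc
Eln, coding, chr5:134711110-134711131, minus strand: tttggggcTGGTGCTggtgtcc
Eln, coding, chr5:134711083-134711104, minus strand: tttggggcTGGTGCTggtgtcc
Eln, coding, chr5:134716467-134716488, minus strand: tatggggtTGGTGCTggtggct

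**Figure D1:**
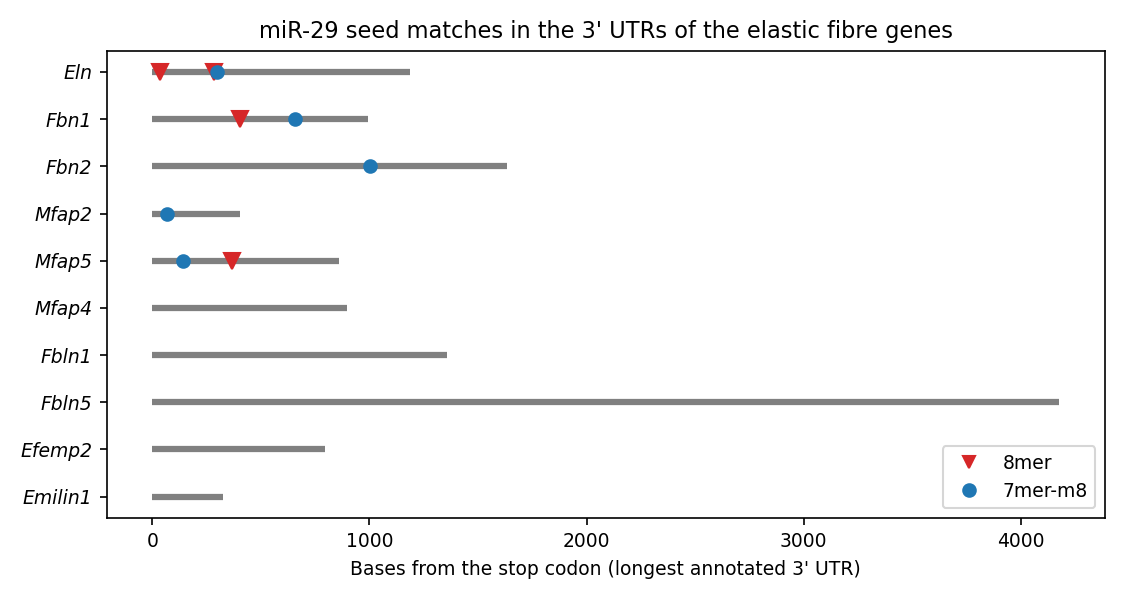
Position of each miR-29 seed match (symbols) in the longest annotated 3′ untranslated region (grey bar) of the 10 elastic fibre genes, in bases from the stop codon. Triangles are matches of 8 bases and circles matches of 7 bases. Eln holds 3 matches, at 38, 285 and 298 bases, while the region of Fbln5, the longest of the 10 at 4177 bases, holds none.

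The RNA-seq libraries held 16244232 (Control), 15769301 (ScxHt) and 14959399 (Dicer cKO) counts. The 10 genes took 0.199%, 0.243% and 0.151% of these counts, and Fbn1 alone made up 78.7%, 76.4% and 66.4% of their reads. Ratios between libraries are ratios of counts divided by the DESeq2 size factors of the pair, with an exact 95% Clopper-Pearson interval that covers counting error only. Lower means here a ratio under 0.60 and higher a ratio over the reciprocal of 0.60, rounded to 2 decimals, for genes whose mean normalized count (baseMean) was above 50. These lower and upper limits were taken over from the study's methods. All 10 genes passed that minimum in each comparison. Dicer1, the targeted gene, had 1919 Control, 2025 ScxHt and 1621 Dicer cKO reads, which puts Dicer cKO/Control at 0.877 (0.821 to 0.938). Its count covers the whole gene and not the deleted part alone.

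Levels per gene length were led by Fbn1, with a deposited RPKM (reads per kilobase of gene length, scaled to the library total) of 129 in the Control, against 153 for ScxHt and 82.9 for Dicer cKO. Mfap4 came next in every library, at 37.0, 56.8 and 52.9 RPKM. The other 8 genes lay between 5.39 and 13.0 RPKM in the Control. Fbln1 was the third highest of the 10 in the Control at 13.0 RPKM and the second lowest in the Dicer cKO at 6.5 RPKM, where Eln held the third place at 15.5 RPKM. In the Dicer cKO, the counting intervals of Efemp2, Mfap2, Fbln1 and Fbln5 overlapped. In the Control, Emilin1 (10.6 RPKM), Eln (10.2) and Mfap5 (10) could not be ordered beyond their counting intervals, and neither could Fbn2 (5.65), Fbln5 (5.63) and Mfap2 (5.39). The length behind the RPKM of Eln is 8097 bases, 1 base from that of all annotated exons joined (8098 bases), while its longest transcript has 3853 bases. Recomputed per kilobase of the longest transcript on the same scale, Eln stood at 21.4, 23.4 and 32.6 in the 3 libraries, above Fbln1 at 15.5, 25.5 and 7.76 in the Control and the Dicer cKO but not in the ScxHt.

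**Figure D2:**
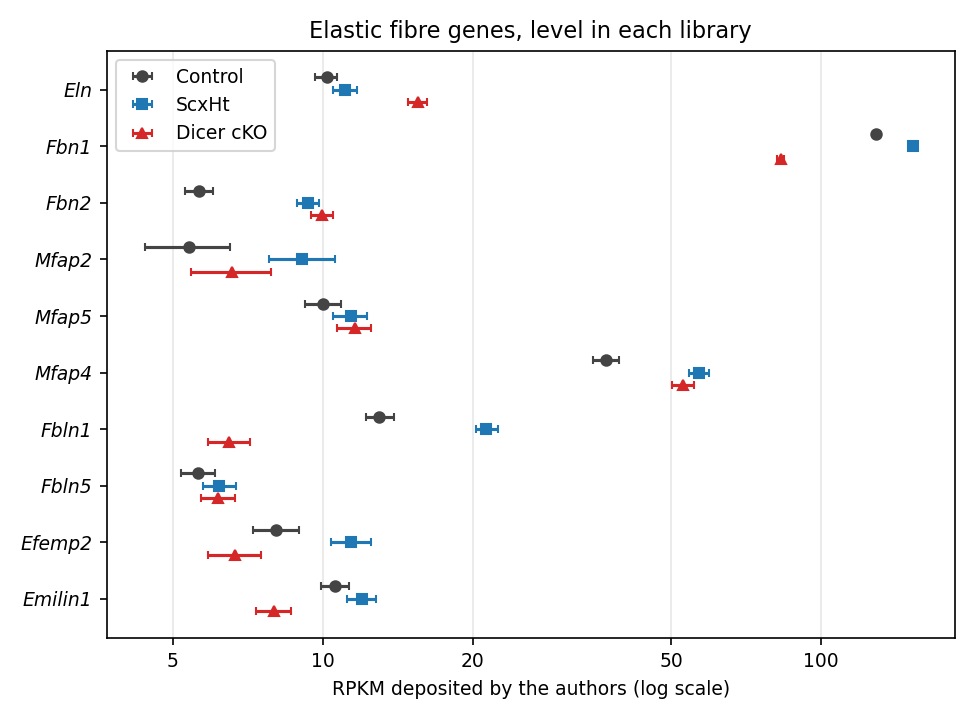
Deposited RPKM (log scale) of the 10 elastic fibre genes in the Control (circles), ScxHt (squares) and Dicer cKO (triangles) libraries, 1 library each, with exact 95% counting intervals as bars. Fbn1 lies far above the other genes in all 3 libraries, and Fbln1 spreads most widely, from 6.5 RPKM in the Dicer cKO to 21.3 in the ScxHt.

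Between the Dicer cKO and the Control the 10 genes went in different directions. Fbn2 was counted as higher and Fbln1 as lower, and the other 8 lay between the limits. Over all 13404 features tested, 3.87% were counted as higher and 4.19% as lower. The counting interval lay above a ratio of 1 for 3 genes (Eln, Fbn2, Mfap4) and below it for 4 (Fbn1, Fbln1, Efemp2, Emilin1), and it held 1 for Mfap2, Mfap5 and Fbln5. Over all features the interval lay above 1 for 21.6% and below it for 28.5%, so these counts of 3 and 4 in 10 are not far from the background. An interval leaves out 1 more readily at high counts, and such shares, here and below, are not matched for read depth. The log2 ratios of the 10 genes had a median of 0.11, beside -0.03 over all features. In whole tendon, fewer cells of a type and less RNA per cell cannot be told apart.

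Between the ScxHt and the Control, which differ in the Cre allele and in the floxed alleles, none of the 10 genes was past a limit, where 3.03% of all 13462 features were counted as higher and 4.71% as lower. All 10 ratios were nevertheless above 1, from 1.02 for Eln (1.0 with size factors over all 3 libraries) to 1.57 for Mfap2. Of all features, 50.4% had a lower ratio than Eln and 95.7% a lower ratio than Mfap2. The interval lay above 1 for 6 genes (Fbn1, Fbn2, Mfap2, Mfap4, Fbln1, Efemp2), beside 26.4% of all features. Their median log2 ratio was 0.27, beside 0.02 over all features. Between the Dicer cKO and the ScxHt, which share the Cre allele, no gene was higher and 2, Fbn1 and Fbln1, were lower. There 7.68% of all 13455 features were counted as higher and 5.68% as lower, and the median log2 ratio was -0.22 for the 10 genes and -0.03 for all features. The 3 comparisons share libraries and are not independent of each other.

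**Figure D3:**
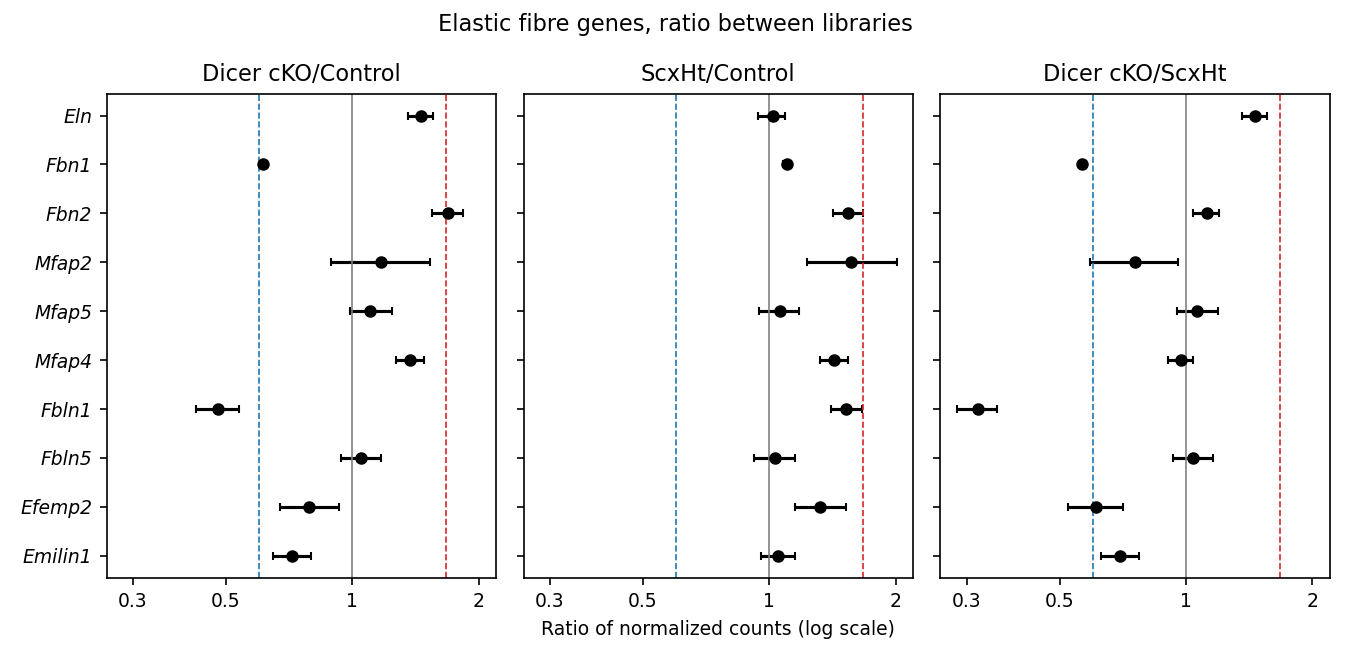
Ratio of normalized counts (log scale) of each elastic fibre gene in the 3 comparisons, with exact 95% counting intervals. The grey line marks a ratio of 1 and the dashed lines the lower and upper limits. All 10 genes lie above 1 in ScxHt/Control, where 50.4% of all features had a lower ratio than Eln, the lowest of the 10. In Dicer cKO/Control they spread from 0.478 (Fbln1) to 1.69 (Fbn2).

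Eln, on the minus strand of chromosome 5 (134702593 to 134747323, GRCm38, as for all positions below), encodes tropoelastin, the elastic core. It had 1339 Control, 1419 ScxHt and 1878 Dicer cKO reads. The first pair of libraries were close to each other and the Dicer cKO stood above both. The Dicer cKO/Control ratio was 1.46 (1.36 to 1.56), Dicer cKO/ScxHt gave 1.46 (1.36 to 1.56), and ScxHt/Control gave 1.02 (0.941 to 1.09). The library with targeted Dicer thus differed in Eln by the same ratio from both others, and this ratio stayed under the upper limit.

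The fibrillins form the backbone of the microfibril, and Fbn2 is best known from development while Fbn1 prevails in grown tissue. Fbn1 (chromosome 2, 125300594 to 125507993, minus strand) had 25493 Control, 29289 ScxHt and 15044 Dicer cKO reads. Its Dicer cKO/Control ratio was 0.613 (0.601 to 0.625), just outside the limit of 0.60, and Dicer cKO/ScxHt was 0.566 (0.555 to 0.577), inside it. ScxHt/Control was 1.10 (1.08 to 1.12). The Dicer cKO library was therefore the lowest of the 3 for the most abundant gene of the group.

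Fbn2 (chromosome 18, 58008623 to 58210487, minus strand) had 962 Control, 1542 ScxHt and 1562 Dicer cKO reads. Here the Control stood apart and both libraries with the Cre allele were high. Dicer cKO/Control was 1.69 (1.55 to 1.83), just past the upper limit with an interval that holds it, and ScxHt/Control was 1.54, with an interval that began at 1.42 and ended at that limit. Between the Dicer cKO and the ScxHt the ratio was 1.12 (1.04 to 1.20).

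Within a library, 1 gene set against another needs no scaling between libraries. Fbn2 stood at 4.37% (4.09 to 4.66) of the RPKM of Fbn1 in the Control, against 6.09% (5.78 to 6.41) for ScxHt and 12.0% (11.4 to 12.7) for Dicer cKO. That is 2.75 times (2.53 to 2.99) the Control value in the Dicer cKO and 1.4 times (1.28 to 1.51) in the ScxHt. Eln stood at 7.87%, 7.26% and 18.7% of Fbn1, or 2.38 times (2.21 to 2.56) the Control value in the Dicer cKO. The Dicer cKO library thus held the most Fbn2 and the most Eln per Fbn1, though Fbn1 remained by far the higher fibrillin in every library.

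**Figure D4:**
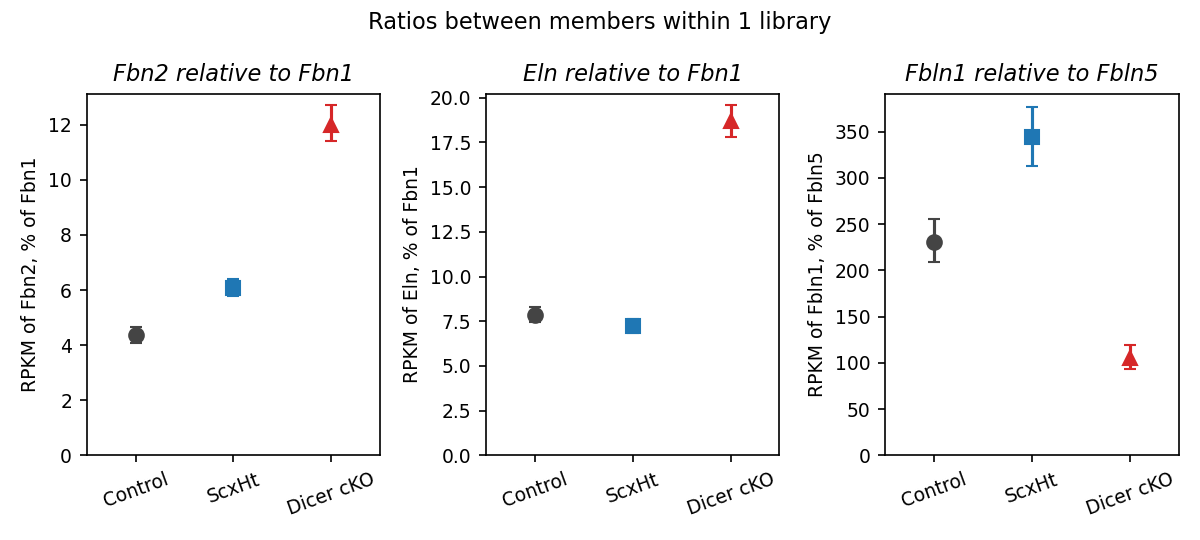
RPKM of Fbn2 as a percentage of Fbn1 (left), of Eln as a percentage of Fbn1 (middle) and of Fbln1 as a percentage of Fbln5 (right) in each library, 1 library per genotype, with 95% counting intervals. The first 2 are highest in the Dicer cKO, at 12.0% and 18.7%, and the last is lowest there, at 105%.

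Among the microfibril-associated genes, Mfap4 differed most clearly from the Control. It encodes a fibrinogen-related protein that binds fibrillin and tropoelastin and lies on chromosome 11 (61485431 to 61488900, plus strand). It had 1155 Control, 1722 ScxHt and 1520 Dicer cKO reads, so that both Cre libraries were above the Control. ScxHt/Control was 1.43 (1.32 to 1.54), Dicer cKO/Control was 1.37 (1.27 to 1.48), and Dicer cKO/ScxHt was 0.973 (0.907 to 1.04).

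Mfap2 and Mfap5 encode the small glycoproteins MAGP-1 and MAGP-2 that bind the fibrillin backbone. Mfap2 (chromosome 4, 141010418 to 141015984, plus strand) was the least counted of the 10, with 106 Control, 174 ScxHt and 119 Dicer cKO reads. The ScxHt library was the high one. ScxHt/Control was 1.57 (1.23 to 2.02), while Dicer cKO/Control was 1.17 (0.89 to 1.53) and could not be told from 1 at this depth. Mfap5 (chromosome 6, 122505845 to 122529290, plus strand) had 585, 645 and 622 reads, and its intervals held 1 in all 3 comparisons, the widest reach being 0.943 to 1.24. Mfap2 stood at 53.7% of the RPKM of Mfap5 in the Control, against 80.0% for ScxHt and 56.7% for Dicer cKO.

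The fibulins are secreted glycoproteins of the elastic fibre, and they did not move together. Fbln1 (chromosome 15, 85205949 to 85286535, plus strand), whose product lies within the elastin core and in basement membranes, had 924 Control, 1470 ScxHt and 425 Dicer cKO reads. The ScxHt library was the highest and the Dicer cKO the lowest. ScxHt/Control was 1.52 (1.40 to 1.66), Dicer cKO/Control was 0.478 (0.425 to 0.536), and Dicer cKO/ScxHt was 0.319 (0.285 to 0.355), the furthest from 1 of the 30 ratios of these genes.

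Fbln5 (chromosome 12, 101746565 to 101819055, minus strand) links tropoelastin to integrins and to lysyl oxidase-like 1. It had 632, 677 and 639 reads in the Control, the ScxHt and the Dicer cKO, and its 3 ratios lay between 1.03 and 1.05 with intervals from 0.919 to 1.17. Efemp2, or fibulin-4, which carries lysyl oxidase to tropoelastin, lies on chromosome 19 (5473954 to 5482517, plus strand). It had 347, 478 and 264 reads, and as for Fbln1 the ScxHt library was the highest and the Dicer cKO the lowest. Its ScxHt/Control ratio was 1.32 (1.15 to 1.52), Dicer cKO/Control was 0.79 (0.671 to 0.93), and Dicer cKO/ScxHt was 0.609 (0.522 to 0.709), near the limit of 0.60.

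Set against Fbln5 within each library, Fbln1 stood at 231% of its RPKM in the Control, against 344% for ScxHt and 105% (92.9 to 119) for Dicer cKO. Efemp2 stood at 143%, 184% and 108% of Fbln5. By the deposited RPKM the 3 fibulins had therefore nearly the same level per length in the Dicer cKO library, and Fbln1 stood clearly above Fbln5 in the others. The value of Efemp2 rests on a length of 2648 bases, whereas its joined exons have 3788, which would put it lower. Per kilobase of the longest transcript the Dicer cKO values were 7.76 for Fbln1, 7.33 for Fbln5 and 6.7 for Efemp2.

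Emilin1 encodes a glycoprotein at the border between elastin and microfibrils that also holds back TGF-beta processing. It lies on chromosome 5 (30913402 to 30921277, plus strand) and had 851 Control, 931 ScxHt and 589 Dicer cKO reads. The Dicer cKO library was the low one, with ratios of 0.719 (0.646 to 0.799) to the Control and 0.697 (0.628 to 0.774) to the ScxHt. ScxHt/Control was 1.05 (0.954 to 1.15).

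The 5 genes with a miR-29 seed match in the 3′ untranslated region did not share a direction. Their Dicer cKO/Control ratios ran from 0.613 (Fbn1) to 1.69 (Fbn2) with a median of 1.17, and those of the 5 genes without a match from 0.478 (Fbln1) to 1.37 (Mfap4) with a median of 0.79. The 2 ranges overlap. In ScxHt/Control the order of the medians was the opposite, 1.1 with a match and 1.32 without, and in Dicer cKO/ScxHt they were 1.06 and 0.697. In small RNA-seq the Mir29a locus had 1259 CPM (counts scaled to the library total) in the Control, against 1221 for ScxHt and 904 for Dicer cKO, and Mir29c had 183, 204 and 172. Mir29b-1 had 40.7, 57.5 and 44.2 CPM, so the miR-29 loci were still counted in the library with targeted Dicer. The ratios of all genes with and without a match were not compared. The part of miR-29 in the values of these genes was not tested.

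The crosslinking enzymes were all below the Control in the Dicer cKO library. The counting interval lay below 1 for 5 of 5 lysyl oxidase genes in Dicer cKO/Control, beside 28.5% of all features, a share not matched for read depth. Of the 5 genes, 1 was past the limit, beside 4.19% of all features. That gene, Lox, which oxidizes lysines of tropoelastin and collagen, had 19679 Control, 21890 ScxHt and 10378 Dicer cKO reads, and its Dicer cKO/Control ratio was 0.548 (0.535 to 0.561). Eln, its substrate, went the other way in the same pair of libraries. Loxl3 passed the limit in Dicer cKO/ScxHt, at 0.59 (0.558 to 0.623), with 2862, 3713 and 1988 reads. In that comparison the interval lay below 1 for 4 of the 5 genes, beside 30.6% of all features. In ScxHt/Control it lay above 1 for 2 and below it for 2, beside 26.4% and 23.8% of all features.

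The latent TGF-beta binding proteins, which resemble the fibrillins in their domains, had intervals below 1 in 4 of 4 genes in Dicer cKO/Control, beside the same 28.5% of all features. Ltbp4, which also takes part in elastin assembly with fibulin-5, had 2636 Control, 2083 ScxHt and 1479 Dicer cKO reads. Its Dicer cKO/Control ratio of 0.583 (0.546 to 0.621) was past the limit, as was that of Ltbp2 at 0.562 (0.464 to 0.679). Over all features, 4.19% were counted as lower in this comparison. Ltbp1 stood at 0.792 and Ltbp3 at 0.805. In ScxHt/Control the 4 ratios ran from 0.757 (Ltbp4) to 1.16 (Ltbp1).

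Over all 27 other elastic fibre genes compared (the lysyl oxidases, the latent TGF-beta binding proteins, further fibulins, EMILINs and multimerins, microfibril-associated ADAMTS proteins and the TGF-beta ligands), 0 were higher and 5 lower in Dicer cKO/Control, beside 3.87% and 4.19% of all features. The interval lay below 1 for 19 and above it for 3, beside 28.5% and 21.6% of all features. The median log2 ratio of the 27 was -0.35, beside 0.11 for the 10 genes. Besides Lox, Ltbp2 and Ltbp4, the 5 were Fbln7 at 0.541 (192, 189 and 100 reads) and Emilin2 at 0.566 (422, 667 and 230 reads). In ScxHt/Control none of the 27 was past a limit, where 3.03% of all features were higher and 4.71% lower, and their median log2 ratio was 0.07. In Dicer cKO/ScxHt 4 were lower, Lox at 0.522, Loxl3 at 0.59, Fbln7 at 0.583 and Emilin2 at 0.38, beside 5.68% of all features. There 1 was higher, beside 7.68% of all features. It was Adamtsl5, which encodes a microfibril-binding protein, at 2.5 (227, 156 and 354 reads).

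Of 9 proteases able to degrade elastin, 5 passed the minimum of reads, and all 5 had intervals below 1 in Dicer cKO/Control (28.5% of all features) and above 1 in ScxHt/Control (26.4% of all features). Mmp7 and Elane had 0 reads in every library, which allows up to 3 reads, and Mmp9 and Mmp12 had at most 6. Ctss, a cysteine protease of macrophages, had 372 Control, 649 ScxHt and 201 Dicer cKO reads. It was the 1 gene past the limit in Dicer cKO/Control, at 0.561 (0.47 to 0.668), beside 4.19% of all features. In ScxHt/Control it was also the 1 gene counted as higher, with a ratio just past the upper limit (1.47 to 1.90), beside 3.03% of all features. In Dicer cKO/ScxHt 3 were lower, Ctss at 0.341, Ctsk at 0.534 and Mmp14 at 0.588, beside 5.68% of all features. The macrophage markers, summed, stood at 152, 280 and 122 CPM, the same order of libraries as Ctss, and their part in these values was not tested.

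**Figure D5:**
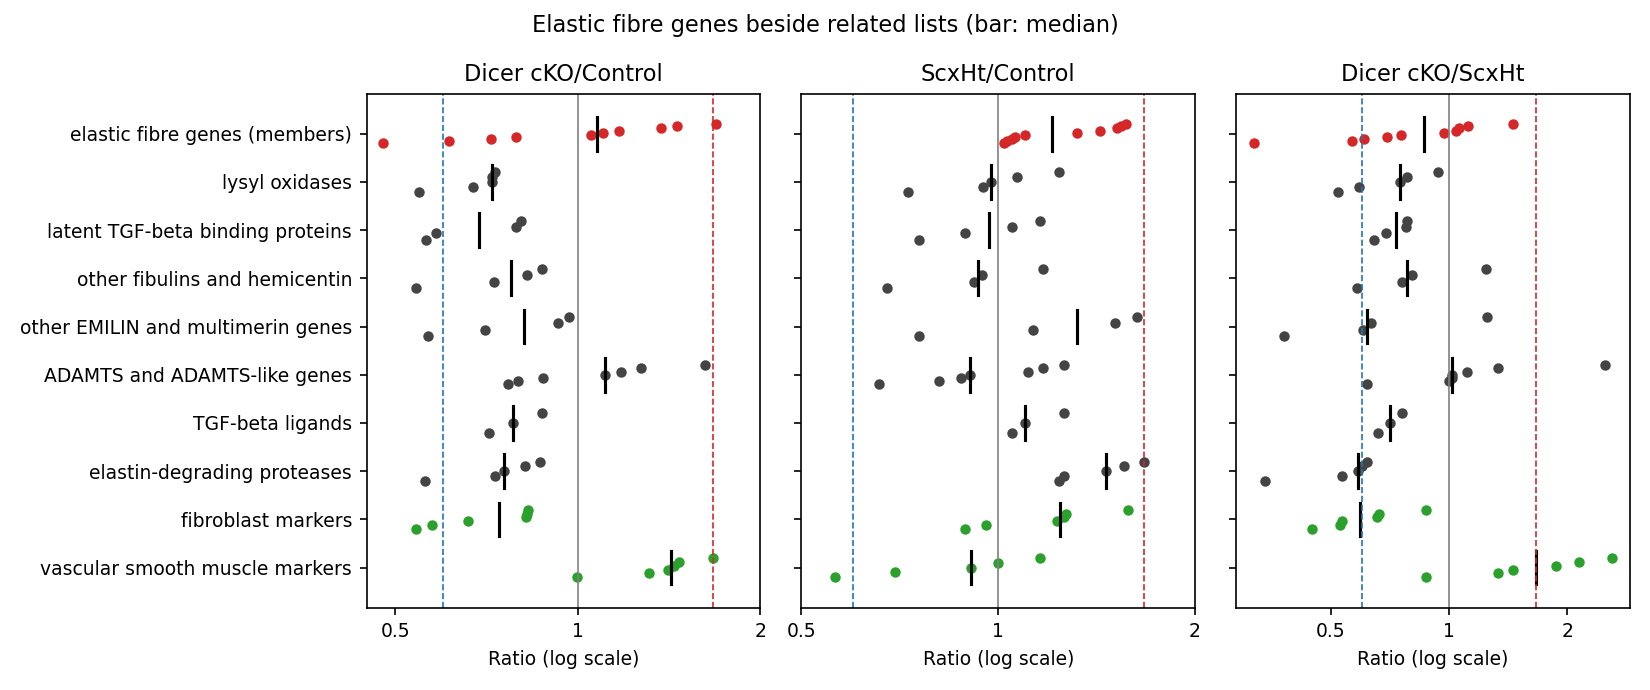
Ratio of normalized counts (log scale) of the 10 elastic fibre genes (red), of related lists (black) and of cell type markers (green) in the 3 comparisons, with 1 point per gene past the minimum of reads and a bar at the median of each list. Dashed lines mark the lower and upper limits. In Dicer cKO/Control the 5 lysyl oxidases and the 6 fibroblast markers lie below 1 throughout, and the 10 elastic fibre genes lie on both sides.

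Markers of the cells that make these genes differed between the libraries too. The 6 fibroblast markers summed to 49829 CPM in the Control, against 50093 for ScxHt and 30482 for Dicer cKO, and the 6 of tendon fibroblasts to 10889, 13865 and 5727. The markers of the labelled tissue were thus present in every library. Skeletal muscle markers summed to 51976, 29168 and 89221 CPM, more than the fibroblast markers in the Control and the Dicer cKO. Each sum rests mainly on 1 gene and is not corrected for gene length, so the sums do not compare amounts of tissue. In the Control, Col1a2 had 708695 of 809430 fibroblast marker reads and Ttn had 688745 of 844316 muscle marker reads. The muscle markers ran from 0.458 (Ttn) to 4.7 (Myh4) in ScxHt/Control. The fibroblast interval lay below 1 for 6 of 6 genes in Dicer cKO/Control, beside 28.5% of all features, with a median ratio of 0.741. The tendon fibroblast markers had a median ratio of 0.482. Relative to the fibroblast median, Eln stood at 1.96, Fbn2 at 2.27 and Mfap4 at 1.84, while Emilin1 stood at 0.97, Efemp2 at 1.07, Fbn1 at 0.827 and Fbln1 at 0.644. Emilin1 and Efemp2 thus lay close to the fibroblast median. Fbln1, at 0.478, lay near the tendon fibroblast median in this comparison. The single tendon markers spread from 0.365 for Scx, which holds the Cre allele, to 0.948. In ScxHt/Control Fbln1 stood at 1.52 against a tendon fibroblast median of 1.23, and in Dicer cKO/ScxHt at 0.319 against 0.513. The 6 fibroblast markers had a median ratio of 1.25 in ScxHt/Control. Their interval lay above 1 for 4 and below it for 1, beside 26.4% and 23.8% of all features. Relative to that median the 10 elastic fibre genes ran from 0.814 (Eln) to 1.26 (Mfap2).

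The 7 vascular smooth muscle markers, from cells that also make elastin, summed to 881, 761 and 1223 CPM. Of the 6 that passed the minimum, 4 had intervals above 1 in Dicer cKO/Control, beside 21.6% of all features, with a median ratio of 1.42. Des among them is also made by skeletal muscle, and without it, a choice made after its values were seen, the sums were 486, 522 and 628 CPM, so that the ScxHt no longer stood below the Control. With Des the median ratio was 0.907 in ScxHt/Control and close to the upper limit, above Eln, in Dicer cKO/ScxHt. Without it the medians were 1.41 in Dicer cKO/Control, 0.954 in ScxHt/Control and 1.46 in Dicer cKO/ScxHt. Eln stood at 1.46 in Dicer cKO/Control, 1.02 in ScxHt/Control and 1.46 in Dicer cKO/ScxHt. The single markers were spread around these medians. Without Des they ran from 0.694 (Myh11) to 1.16 in ScxHt/Control and from 0.876 to 2.15 (Myh11) in Dicer cKO/ScxHt. The 5 Schwann cell markers summed to 223, 294 and 687 CPM, and the 5 endothelium markers to 562, 410 and 663. No marker of these lists was at 0 in any library. The part of the cell types in the values of the elastic fibre genes was not tested.

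The spans of 5 of the 10 genes, introns included, overlap a gene on the opposite strand. The strand setting of the counting is not given in the sources used here, and overlap of exons was not examined. Whether reads of these genes were confused is therefore not known. Fbn1 overlaps Gm9913 (5, 5 and 4 reads), Fbn2 overlaps Gm26507 (6, 0 and 1 reads), Mfap4 overlaps Mapk7 (189, 198 and 192 reads), and Efemp2 overlaps Mus81 (145, 152 and 153 reads). Eln overlaps Gm30003, which was not analysed here. For Efemp2 the partner's reads equal a sizeable share of its own 264 to 478, but whether any of them bear on its count was not examined.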

How the data were processed

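RNA-seq and small RNA-seq of total Achilles tendon RNA were made with 1 library per genotype, 6 in all. Per the study's methods the authors trimmed adaptors, aligned to GRCm38 (TopHat, Bowtie2), counted reads per gene (HTSeq) and deposited raw counts and RPKM values. Versions, annotation release and strand setting are not given in the sources used here. The deposited RPKM values are the counts divided by feature length and library total, and the length equals all exons of GENCODE vM21 joined, within 1 base, for 8 of the 10 genes (exactly for 5). The other 2 were Fbn2, with 10479 bases behind its RPKM and 13215 joined, and Efemp2, with 2648 and 3788. Their levels per length, also relative to Fbn1 or Fbln5, thus rest on lengths that do not follow this rule. Of 54189 features, 463 lines repeated an earlier line and were removed.

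Size factors of each pair came from DESeq2 1.42.0, and edgeR 4.0.16 in R 4.3.3 gave TMM factors as an alternative. Ratios and intervals used scipy 1.17.1, pandas 2.3.3 and numpy 2.4.6 under Python 3.11.15, and figures were drawn with matplotlib 3.10.9. The calculation was run on simulated counts that held counting error only. Variation between mice was not simulated, so that run says nothing about it. No pseudocount was used. Intervals of a ratio between 2 within-library percentages used a normal approximation on the log scale. Sequences were read with pysam 0.24.0. The members, the lists and the limits were chosen with earlier results of these data known. The text names all 10 genes, Lox and the 4 Ltbp genes, and other listed genes only where past a limit in a comparison. The depth of 14959399 to 16244232 counts per library sets the width of each interval. Alternatives were the scaling, the pseudocount, the minimum baseMean, the limits, the whole interval and the RPKM values.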

Additional observations from a re-analysis of the deposited data

How the results depend on the processing

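The ratios of the 10 genes moved little between the scalings. Of 180 ratios under another scaling, a pseudocount or the RPKM values, 174 stayed inside the counting interval of the reported value, and 6 lay outside it. These are not separate checks. The RPKM ratios repeat those by total counts, rounding aside, and a pseudocount of 1 can hardly move counts of this size. A ratio also stays inside more easily where few reads make the interval wide. Fbln5 in Dicer cKO/ScxHt, whose interval holds 1, went from 1.04 to 0.995 by total counts and by RPKM, and no other ratio crossed 1. The 6 outside were those of Fbn1, at 0.641 in Dicer cKO/Control, 1.18 in ScxHt/Control and 0.541 in Dicer cKO/ScxHt, by total counts and by RPKM. Counts of genes past a limit moved with the limit. Fbn2 was no longer higher in Dicer cKO/Control, leaving 0 genes, with limits of 2 and 0.5 or with the whole interval past the limit, and in Dicer cKO/ScxHt 1 gene in place of 2 was lower with limits of 2 and 0.5. With total counts or RPKM, Mfap2 became higher in ScxHt/Control at 1.69, making 1 gene, and Efemp2 lay below the limit in Dicer cKO/ScxHt at 0.582. Scaling by total counts moved the median log2 ratio of all features to 0.12 in ScxHt/Control and to -0.10 in Dicer cKO/ScxHt. Features higher and lower were then 664 and 439 in place of 519 and 561 in Dicer cKO/Control, 631 and 459 in place of 408 and 634 in ScxHt/Control, and 904 and 958 in place of 1033 and 764 in Dicer cKO/ScxHt. No paired analysis was possible because each genotype had 1 library.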
